A study of Mus musculus with 5 samples.

Results

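The 9 genes described here encode transcription factors that mark the layers of the cerebral cortex. Cux1, Cux2, Pou3f2 and Rorb stand for the upper layers, and Bcl11b, Fezf2, Tbr1, Sox5 and Foxp2 for the deep layers. They were listed by name, with earlier results of these data known, out of 21938 protein-coding genes of the GENCODE M21 annotation of the mouse genome (GRCm38, also called mm10). For each gene, all NEUROD2 binding peaks that touched the gene body or the 50 kb on either side of it were collected. This stretch is called the span of the gene.

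NEUROD2 binding was measured by chromatin immunoprecipitation and sequencing (ChIP-Seq), in which an antibody recovers the DNA fragments bound by a protein. The tissue was cerebral cortex of untreated wild-type BALB/c mouse pups at postnatal day 0, pooled over littermates. Each of 3 commercial NEUROD2 antibodies gave 1 library, ab168932 being called antibody 1 here, while ab104430 is antibody 2 and ab109406 is antibody 3. A GFP antibody on the same tissue served as the control of peak calling. There was no second genotype, age or treatment, and cortical tissue holds neurons of every layer, so that binding in upper-layer and in deep-layer neurons cannot be told apart. Whether each antibody was used on its own pool of mice is not known, and the 3 antibodies are taken as replicates of the measurement, whose spread may be technical.

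The cerebral cortex is built in layers, and neurons of each layer share their inputs, their targets and a set of transcription factors. Deep-layer neurons are born first and send many of their axons out of the cortex, and upper-layer neurons are born later and connect mainly within the cortex. NEUROD2 is a basic helix-loop-helix protein of excitatory cortical neurons. It binds DNA as a dimer at E-boxes, the motif CANNTG.

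The peak lists held 5202 peaks of antibody 1, 11196 of antibody 2 and 3164 of antibody 3. Each peak carries a MACS score, minus 10 times the log10 of its p, and no score was below 50. The scores were not scaled between antibodies, and the read depth behind them is unknown. The authors' table of shared sites, those with a peak of all 3 antibodies, held 2071 sites. Its score adds up the scores of the peaks in the site, and the median over all sites was 573.06. Peaks sharing at least 1 bp are joined here into 1 region.

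Of the 9 genes, 5 had at least 1 shared site in the span. These were Cux1, Cux2 and Pou3f2 of the upper layers and Tbr1 and Foxp2 of the deep layers. Over all protein-coding genes, 15.5% had a shared site in a span of the same kind. Long genes had one more often, and the share was 25.6% over the 2492 genes longer than 100 kb and 14.2% over the 19446 other genes. Of the 5 members longer than 100 kb, 3 had a shared site (Cux1, Cux2 and Foxp2), and of the 4 shorter members 2 did (Pou3f2 and Tbr1).

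The reference sequence at the middle of the highest scoring shared site is printed for each of these 5 genes. Each is 200 bp of the plus strand of GRCm38, with the E-boxes in capitals, and the sequence is that of the reference assembly and not of the BALB/c strain. The windows are chr5:136486547-136486746 at Cux1, chr5:121892444-121892643 at Cux2, chr4:22487535-22487734 at Pou3f2, chr2:61815824-61816023 at Tbr1 and chr6:14900624-14900823 at Foxp2. An E-box is present in 89.4% of such windows over all 2071 shared sites. The windows are centred on the joined region. At Cux2 and Pou3f2 they lie wholly within peaks of all 3 antibodies. Part of the window lies outside the antibody 3 peak at Cux1 and Tbr1, and outside the antibody 1 peak at Tbr1 and Foxp2. The CACGTG of the Foxp2 window lies outside the antibody 1 peak, which starts at 14900734.
Cux1: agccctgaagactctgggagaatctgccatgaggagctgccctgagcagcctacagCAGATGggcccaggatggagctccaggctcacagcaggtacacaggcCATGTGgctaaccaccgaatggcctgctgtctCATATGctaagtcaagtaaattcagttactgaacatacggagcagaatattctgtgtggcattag
Cux2: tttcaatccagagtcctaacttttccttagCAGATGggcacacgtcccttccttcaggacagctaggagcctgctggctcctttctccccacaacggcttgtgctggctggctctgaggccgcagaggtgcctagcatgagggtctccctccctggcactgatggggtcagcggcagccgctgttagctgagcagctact
Pou3f2: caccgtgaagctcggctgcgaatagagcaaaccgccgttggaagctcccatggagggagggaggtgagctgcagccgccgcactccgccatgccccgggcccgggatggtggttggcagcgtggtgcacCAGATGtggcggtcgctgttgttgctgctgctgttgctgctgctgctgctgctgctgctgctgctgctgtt
Tbr1: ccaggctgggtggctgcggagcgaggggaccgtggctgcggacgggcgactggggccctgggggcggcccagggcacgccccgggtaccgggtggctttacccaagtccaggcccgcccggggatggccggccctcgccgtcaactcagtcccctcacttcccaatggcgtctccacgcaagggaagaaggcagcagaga
Foxp2: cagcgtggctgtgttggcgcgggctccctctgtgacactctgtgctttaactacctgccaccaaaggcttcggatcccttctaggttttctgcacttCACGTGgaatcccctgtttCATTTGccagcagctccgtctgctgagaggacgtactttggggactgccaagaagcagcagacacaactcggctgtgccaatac

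The windows of the 3 upper-layer genes each hold CAGATG. At Cux1 it starts at base 57 of the window and is followed by CATGTG at base 104 and CATATG at base 136. At Cux2 the CAGATG at base 31 is the sole E-box, and at Pou3f2 the one at base 130. The windows of the other shared sites of Cux2 and Pou3f2 hold CATCTG, the reverse complement of CAGATG, or CAGCTG. The share of all shared sites with CAGATG alone was not counted. The Foxp2 window holds other forms, CACGTG at base 98 and CATTTG at base 117, and the Tbr1 window holds no CANNTG. The Cux1 and Cux2 windows are intronic, the Pou3f2 window lies in the coding sequence of its single exon, and the Tbr1 and Foxp2 windows lie outside the gene bodies.

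Cux2 (ENSMUSG00000042589, chromosome 5, 121856366 to 122050102, minus strand) encodes a homeobox protein of upper-layer neurons that is known for its role in dendrite and spine formation. It had 6 peaks with each antibody, and these joined into 8 regions, of which 4 were shared sites. No other member had as many shared sites, and over all protein-coding genes 0.283% (62 genes) had 4 or more in their span.

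The 4 shared sites of Cux2 were spread over 188.6 kb. The first lay upstream of the gene (122080783 to 122081411), 30995 bp before its start, with scores of 316.02, 403.67 and 140.85 for antibodies 1, 2 and 3. Its closest protein-coding transcription start site (TSS) was that of Myl2, a myosin light chain gene, at 19854 bp. The second, in intron 2 of the 23-exon transcript ENSMUST00000111752 (121968224 to 121968845), had scores of 295.46, 349.75 and 128.02. The site in intron 4 (121904951 to 121905538) and that in intron 5 (121892141 to 121892946) lay 12.7 kb apart. Their scores were 238.05, 385.73 and 157.72 in intron 4 and 234.67, 531.72 and 214.34 in intron 5. At each of these sites antibody 2 was highest and antibody 3 lowest, and all of these scores were above 100. The deposited scores of the 4 sites, from 773.23 to 980.73, placed them between rank 443 and rank 660 of the 2071 shared sites.

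Of the other 4 Cux2 regions, 3 lay in intron 2. A pair of them lay within 1 kb of the shared site there, with scores of 89.66 and 57.1 for antibodies 1 and 2 in one and 67.68 for antibody 3 in the other. The region with antibodies 2 and 3 (211.28 and 54.09) lay past the end of Cux2 and 575 bp from the TSS of Sh2b3, which encodes an adaptor protein. No Cux2 region had its midpoint within 1000 bp of a TSS of Cux2.

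Cux1 (ENSMUSG00000029705, chromosome 5, 136248135 to 136567490, minus strand) encodes the related homeobox protein, also found in upper-layer neurons. It had 3 peaks with antibody 1, 8 with antibody 2 and 1 with antibody 3. They made 8 regions, of which 1 was a shared site and 5 had a peak of antibody 2 only. The number of peaks was thus equal between antibodies at Cux2 and unequal at Cux1.

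The shared site of Cux1 (136486444 to 136486848) lay in intron 1 of the 24-exon transcript ENSMUST00000004097, 80844 bp from the gene start and 78786 bp from the closest TSS of Cux1. The TSS of Gm38082 was closer, at 49831 bp. Antibody 1 gave 363, antibody 2 gave 259.58 and antibody 3 gave 84.16, so that here antibody 1 was highest. Among the 9 shared sites of the members it was the sole site with this order, which was found in 13.8% of the 2051 shared sites with the limits of a joined region. In the same intron, closer to the gene start, lay antibody 2 regions with scores of 58.06 and 59.21, close to the lowest in the list.

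At the start of Cux1, 84 bp from its TSS, a region had peaks of antibodies 1 and 2 (74.99 and 114.55) and none of antibody 3. Another region with these antibodies, 36125 bp upstream of the gene, had scores of 183.74 and 191.96. Past the end of the gene, the antibody 2 peaks of 105.62 and 62.93 lay 276 bp from the TSS of Sh2b2, an adaptor gene, and 86 bp from that of Prkrip1. They touch the span of Cux1 but are closer to the TSSs of these neighbours.

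Pou3f2 (ENSMUSG00000095139, chromosome 4, 22482780 to 22488366, minus strand), also named Brn2, encodes a POU domain factor needed for the production and migration of upper-layer neurons. It is a gene of a single exon and 5.6 kb, and it had 3, 3 and 2 peaks with antibodies 1, 2 and 3. The 3 regions all lay near the gene start.

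A shared site of 1621 bp (22486824 to 22488444), the longest among the members, covered the start of Pou3f2. It had 329.17 with antibody 2, 95.65 with antibody 3, and peaks of 113.06 and 70.42 with antibody 1. The other shared site (22491242 to 22491869) lay 3189 bp upstream, inside Gm30731, with scores of 91.54, 260.6 and 94.6. Antibody 2 stood well above the others at both sites. Between them lay a peak of antibody 2 alone (121.84), 412 bp upstream of the start.

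Rorb (ENSMUSG00000036192, chromosome 19, 18930605 to 19111196, minus strand) encodes a nuclear receptor characteristic of layer 4 neurons. It had 1 peak with antibody 1, 2 with antibody 2 and none with antibody 3, and no shared site. The region in intron 1, 4240 bp from an internal TSS of Rorb, had scores of 79.12 and 53.06 with antibodies 1 and 2. The other was an antibody 2 peak of 61.78 in exon 1, 606 bp from the gene start. These scores lay below the median of their whole lists (86.42 for antibody 1 and 93.89 for antibody 2). The shared site nearest to Rorb was 1326.9 kb away, and 17.9% of protein-coding genes had their nearest one at least as far off.

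**Figure D1:**
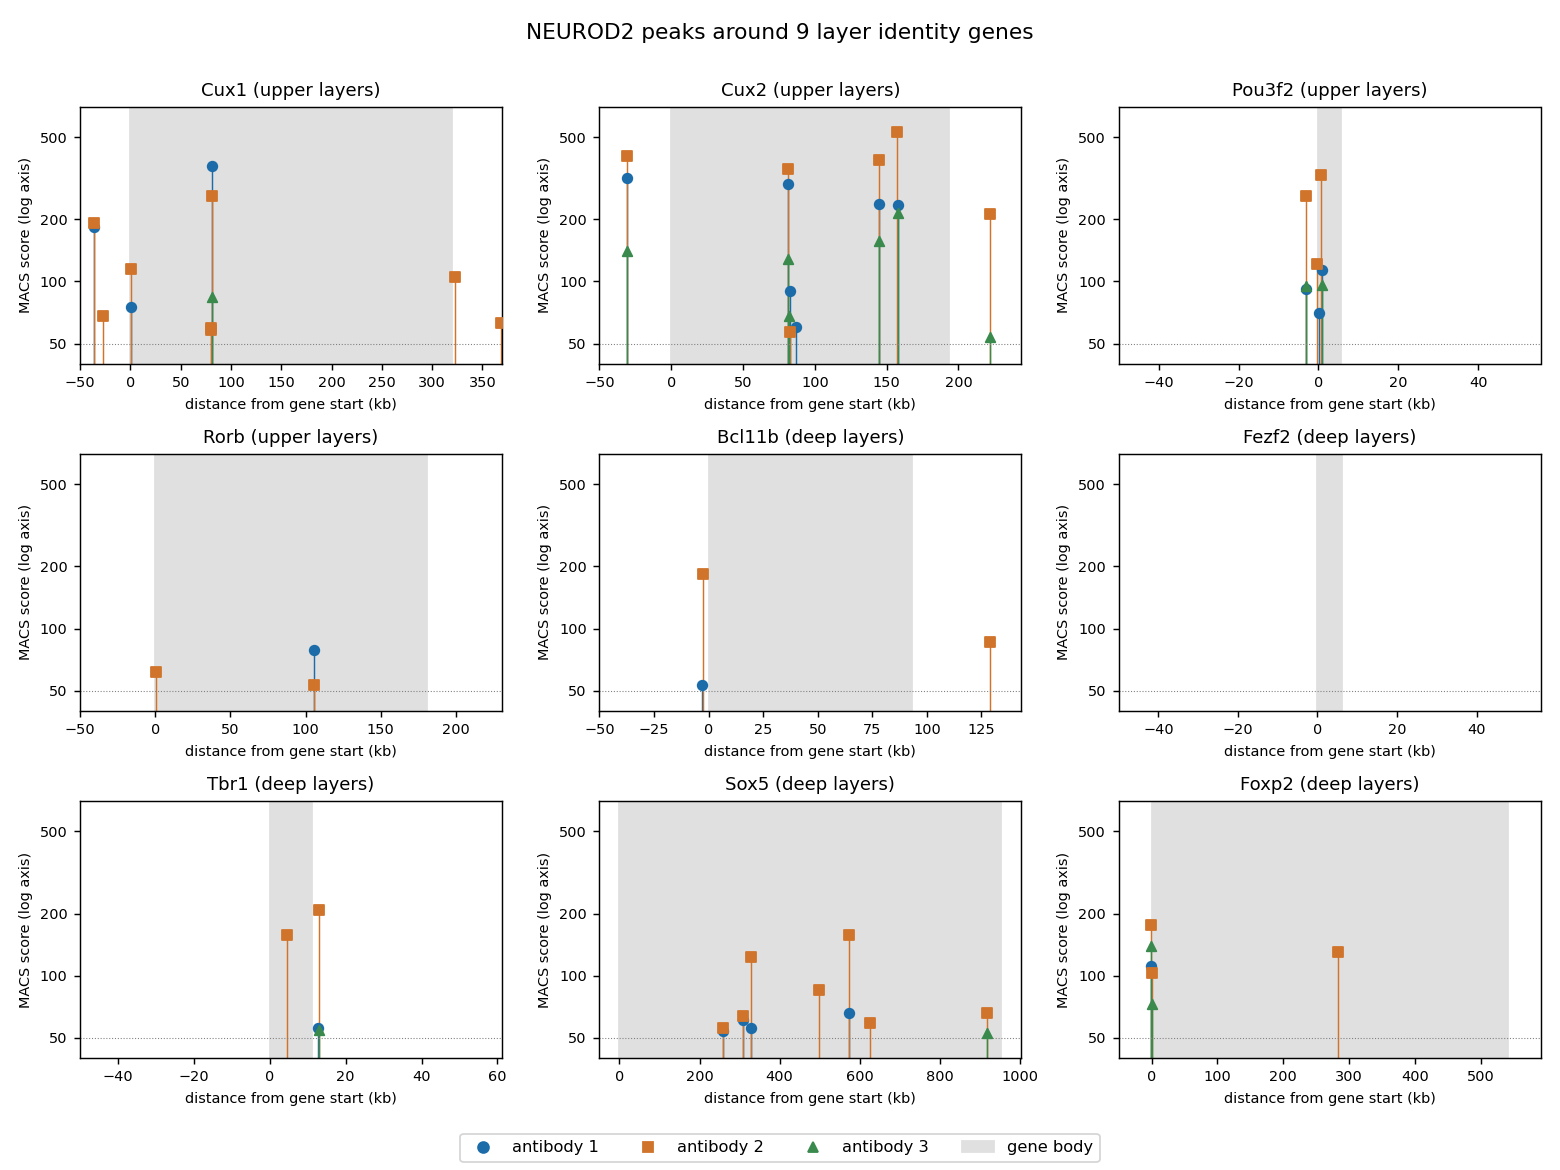
NEUROD2 peaks in the spans of the 9 genes. The x axis gives the distance of the peak midpoint from the gene start in kb, with transcription to the right, the y axis gives the MACS score on a log axis, the grey field is the gene body, and the dotted line is the lowest score in the lists (50). Cux2 has tall peaks of all antibodies at 4 places, the peaks of Sox5 are spread over a long body, and Fezf2 has none.

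Bcl11b (ENSMUSG00000048251, chromosome 12, 107910403 to 108003602, minus strand), also named Ctip2, encodes a zinc finger factor of neurons that project to the brainstem and spinal cord. It had 1, 2 and 0 peaks with antibodies 1, 2 and 3, and none of them lay in the gene body. A region 2746 bp upstream of the gene start had scores of 53.24 with antibody 1 and 183.13 with antibody 2. The other, 35757 bp past the gene end, was an antibody 2 peak of 86.27. With no peak of antibody 3, Bcl11b had no shared site, as at Rorb.

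Fezf2 (ENSMUSG00000021743, chromosome 14, 12342094 to 12348189, minus strand) encodes a zinc finger factor that specifies corticospinal neurons. It was the only one of the 9 genes without a peak of any antibody in its span. The closest region of any antibody lay 156.7 kb from the gene, 4703 bp from a TSS of Ptprg, and 24.9% of protein-coding genes were at least as far from a region. The nearest shared site lay 474.4 kb away, against a median of 350.6 kb over all protein-coding genes. Binding that gave a score below the authors' threshold cannot be seen in peak lists.

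Tbr1 (ENSMUSG00000035033, chromosome 2, 61802930 to 61814114, plus strand) encodes a T-box factor of layer 6 neurons that project to the thalamus. It had 1, 2 and 1 peaks with antibodies 1, 2 and 3. Its shared site (61815483 to 61816363) had its midpoint 1809 bp past the gene end, with scores of 56.01, 208.46 and 54.54. The scores of antibodies 1 and 3 were close to the lowest in the lists, and the sum of 319.01 ranked 1806th of 2071. An antibody 2 peak of 157.77 lay in exon 4 of 6.

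Sox5 (ENSMUSG00000041540, chromosome 6, 143828425 to 144781977, minus strand) encodes an SRY-box factor that controls the order in which deep-layer neurons are produced. It is the longest of the 9 genes, with a body of 953.6 kb, and it had 4, 7 and 1 peaks with antibodies 1, 2 and 3. They made 7 regions, all in the gene body, of which 5 had peaks of 2 antibodies and none had peaks of all 3. In 4 of these 5 regions the antibodies were 1 and 2, and in the other they were 2 and 3.

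The Sox5 region with the highest scores (144208037 to 144208353) had 65.96 with antibody 1 and 156.81 with antibody 2, and lay 1257 bp from an internal TSS of Sox5. The region at 144452738 to 144453026 followed, with 55.72 and 122.95. The scores of the remaining regions ranged from 52.94 to 85.31. The principal transcript, ENSMUST00000038815, starts 572497 bp inside the gene body, and 4 of the 7 regions lay upstream of this transcript.

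Foxp2 (ENSMUSG00000029563, chromosome 6, 14901349 to 15441977, plus strand) encodes a forkhead factor of layer 6 neurons, known from its link to speech in humans. It had 1, 3 and 2 peaks with antibodies 1, 2 and 3. The shared site (14900429 to 14901017) lay 626 bp upstream of the gene start, with scores of 111.9, 175.49 and 139.79. Here antibody 3 was above antibody 1, as at the upstream site of Pou3f2, and 17.2% of shared sites had this order. A region with antibodies 2 and 3 (103.31 and 73.14) followed in exon 1, 78 bp from a TSS. Within the gene, an antibody 2 peak of 130.88 lay 32 bp from an internal TSS, 283266 bp from the gene start.

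Foxp2 and Pou3f2 were thus the members with a shared site within 1000 bp of an own TSS. Over all protein-coding genes, 2.82% had such a site. Counting regions of any antibody, 7 of 35 had their midpoint within 1000 bp of a TSS of the member. They were 4 at upper-layer genes (Pou3f2 with 2, Cux1 and Rorb) and 3 at Foxp2. These are 4 of the 9 genes, and 19.6% of all protein-coding genes had such a region.

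**Figure D2:**
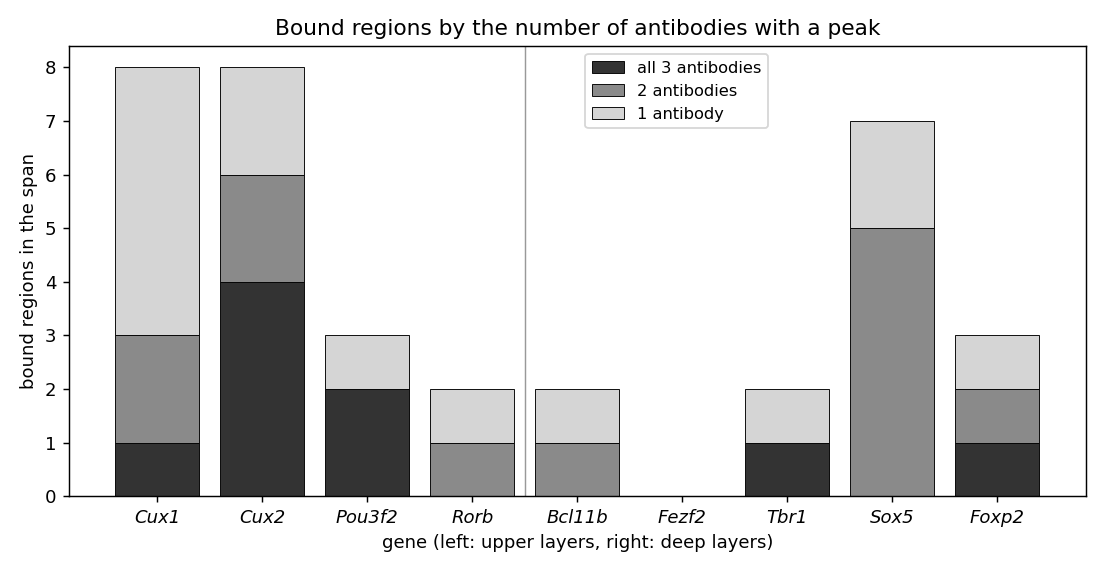
Number of bound regions in the span of each gene (y axis), split by how many antibodies had a peak in the region. Cux1 and Cux2 have 8 regions each, but 4 of those of Cux2 and 1 of those of Cux1 have peaks of all 3 antibodies. Sox5 has 7 regions and none with all 3.

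The antibodies did not detect the members equally. With antibody 1, 8 of the 9 genes had a peak in the span, against 29.4% of all protein-coding genes. With antibody 2 it was also 8, against 52.7%, and with antibody 3 it was 6, against 22.1%. Antibody 3 lacked peaks at Rorb, Bcl11b and Fezf2. The shares of all protein-coding genes given here, and those below for pairs of antibodies, are over genes of any length. Of the 9 members, 5 are longer than 100 kb. Genes of that length more often had a shared site, 25.6% against 14.2% of the other genes, and no such split was made by antibody.

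Of the 35 regions, 9 had peaks of all antibodies (25.7%), 12 had peaks of 2 antibodies and 14 of 1 antibody. Over all 12637 regions of the genome, 16.5% had peaks of all antibodies. At upper-layer genes 7 of 21 regions did (33.3%), and at deep-layer genes 2 of 14 (14.3%). Antibody 2 alone accounted for 12 of the 35 regions, and for 52.2% of regions over the genome. In 8 of the 9 shared sites antibody 2 gave the highest score, and it did so in 85.0% of the 2051 shared sites.

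The upper-layer genes were compared with the deep-layer genes by the number of peaks, their scores and their positions. The spans of the 4 upper-layer genes add up to 1099.3 kb and those of the 5 deep-layer genes to 2104.7 kb, so the number of peaks was divided by the length of the span. In the upper-layer spans there were 13, 19 and 9 peaks of antibodies 1, 2 and 3, or 1.183, 1.728 and 0.819 per 100 kb. In the deep-layer spans there were 7, 14 and 4 peaks, or 0.333, 0.665 and 0.190 per 100 kb. With every antibody the density was higher at the upper-layer genes, 3.553-fold, 2.598-fold and 4.311-fold.

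The difference, upper minus deep, was 0.847 ± 0.217 peaks per 100 kb (SD, n = 3 antibodies), with the same sign for all antibodies (exact sign-flip permutation test over antibodies, two-sided, p = 0.25, the smallest p that 3 antibodies allow). The test therefore cannot call a difference, and it speaks of the antibodies and not of the genes, which were listed with earlier results of these data known. Over the spans of all protein-coding genes, the density was 0.25, 0.57 and 0.158 per 100 kb. The upper-layer spans were 4.73, 3.03 and 5.18 times as dense as this, and the deep-layer spans 1.33, 1.17 and 1.20 times.

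Not every gene followed its group. Rorb, an upper-layer gene, had 0.356, 0.713 and 0 peaks per 100 kb, below the deep-layer gene Tbr1 with 0.899, 1.799 and 0.899. Pou3f2 had the highest density with antibodies 1 and 2 (2.841 each), and Cux2 with antibody 3 (2.043). Cux1 had 1.908 per 100 kb with antibody 2 but 0.715 with antibody 1 and 0.238 with antibody 3. Sox5, with 0.380, 0.664 and 0.095, and Foxp2, with 0.156, 0.468 and 0.312, have the longest bodies and make up most of the deep-layer span. Without Cux2 the difference between the groups was 0.536, 0.949 and 0.182 per 100 kb for antibodies 1, 2 and 3, with a mean of 0.556. Without the peaks whose closest protein-coding TSS is that of another gene, it was 0.635.

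**Figure D3:**
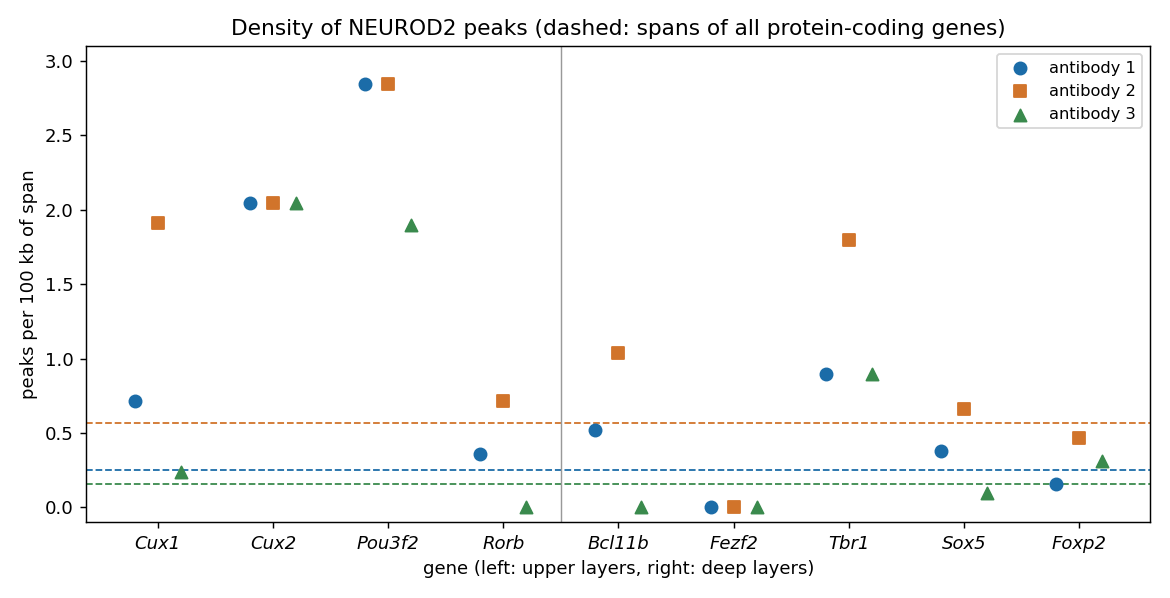
Peaks per 100 kb of span (y axis) for each gene and antibody, with 1 point per library. Dashed lines give the density in the spans of all protein-coding genes for the antibody of the same colour. Cux2 and Pou3f2 are high with every antibody, Rorb is low among the upper-layer genes, and Tbr1 is the highest of the deep-layer genes.

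The median score of the peaks in the upper-layer spans was 113.06, 121.84 and 95.65 for antibodies 1, 2 and 3. In the deep-layer spans it was 56.01, 113.13 and 63.84, and over the whole lists 86.42, 93.89 and 76.7. The difference, upper minus deep, was 57.05, 8.71 and 31.81, on average 32.523 ± 24.178 (SD, n = 3 antibodies, exact sign-flip permutation test, two-sided, p = 0.25, again the smallest possible). Single antibody 2 peaks scored from 53.06 to 531.72 in the upper-layer spans and from 55.85 to 208.46 in the deep-layer spans. The difference of the medians was smallest with antibody 2. It depended on single genes with this antibody, and was -7.51 without Cux2 and -35.93 without Sox5. With flanks of 10 kb it was -4.755 with antibody 2, and the mean over antibodies was 20.862. Scores of at least 100 were held by 7, 12 and 4 peaks at upper-layer genes and by 1, 8 and 1 at deep-layer genes.

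Of the 9 shared sites, 7 lay in upper-layer spans and 2 in deep-layer spans. The density of shared sites over all 9 spans was 0.281 per 100 kb, against 0.103 in the spans of all protein-coding genes. It was 0.637 in the upper-layer spans and 0.095 in the deep-layer spans, the latter near that of all genes. The median deposited score of the 7 upper-layer sites was 773.23, from 446.74 at the upstream site of Pou3f2 to 980.73 at the intron 5 site of Cux2. The deep-layer sites had 319.01 (Tbr1) and 427.18 (Foxp2). The scores of the groups did not overlap, but 4 of the upper-layer sites belong to Cux2 alone. Against the median of all shared sites, 573.06, every upper-layer site except the upstream one of Pou3f2 was higher and both deep-layer sites were lower.

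By position, 5 of the 7 upper-layer shared sites lay in the gene body (71.4%, 95% Wilson interval 35.9 to 91.8). Of the 2 deep-layer sites none did (0%, with an upper limit of 65.8). The intervals overlap, cover counting error only, and treat sites of the same gene as separate. The Foxp2 site and 2 upper-layer sites (1 of Cux2 and 1 of Pou3f2) lay upstream, and the Tbr1 site lay downstream. The body of Tbr1 takes up 11.2 kb of its span and that of Foxp2 540.6 kb, so the room for a site in the body differed widely.

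The number of shared sites depended on which antibodies were required. Sites shared by antibodies 1 and 2, whatever antibody 3 showed, numbered 11 at upper-layer genes and 7 at deep-layer genes. The added ones were 4 at Sox5, 2 at Cux1 and 1 each at Cux2, Rorb and Bcl11b. Of the 9 genes, 8 had such a site, all except Fezf2, against 25.4% of all protein-coding genes. Sites shared by antibodies 2 and 3, whatever antibody 1 showed, numbered 8 and 4, with 1 added at each of Cux2, Sox5 and Foxp2. Here 6 of the 9 genes had a site, against 19.5% of all protein-coding genes. Requiring antibodies 1 and 3 gave the same 7 and 2 as all antibodies, in 5 genes, against 15.7%. The share of deep-layer sites in the gene body changed with this choice, to 4 of 7 with antibodies 1 and 2 (all 4 in Sox5) and to 2 of 4 with antibodies 2 and 3.

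**Figure D4:**
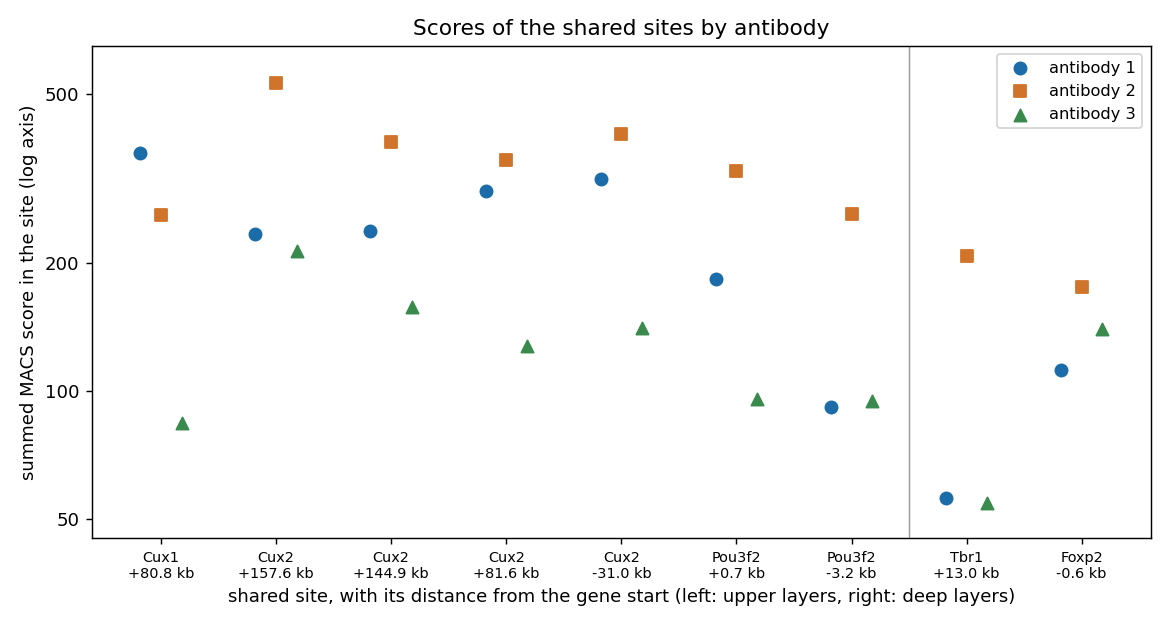
Scores of the 9 shared sites for each antibody. Each column is 1 site, named by its gene and the distance of its midpoint from the gene start, and the y axis gives the sum of the MACS scores of that antibody in the site on a log axis. Antibody 2 is highest everywhere except at Cux1, and the Tbr1 site has the lowest values of antibodies 1 and 3.

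E-boxes were counted in the central 200 bp of the shared sites as CANNTG, which reads the same on both strands. The 9 sites held 2.00 ± 1.22 E-boxes (SD over sites), and all 2071 shared sites held 2.45 ± 2.03. The mean of the members was the lower one, the SDs are those of single sites, and the difference of the means was not tested. The intron 2 site of Cux2 had the most, with 4, followed by the Cux1 site and the upstream Cux2 site with 3 each. Tbr1 had 0, and this says only that these letters are not in this window. The whole Tbr1 site, of 881 bp, held 2.

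CAGATG or its reverse complement CATCTG, or CAGCTG, was present in each of the 7 upper-layer windows and in neither deep-layer window. The share of 7 of 9 (77.8%) is near that of all shared sites, 77.1%. The mean number of these forms per window was lower in the members, 0.78 against 1.44 in all shared sites. In the Foxp2 window the E-boxes were of other forms, as printed above. Regions of the members with 2 antibodies held 2.00 E-boxes per window (n = 12) and those with 1 antibody held 1.5 (n = 14). The Sox5 region at 144472528 to 144472772, with peaks of antibodies 1 and 2, had 6 E-boxes in its window. No window of a shared site of the members had as many. Over its whole length this region held 7, against 8 in the intron 2 site of Cux2 and 8 in the site at the start of Pou3f2.

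**Figure D5:**
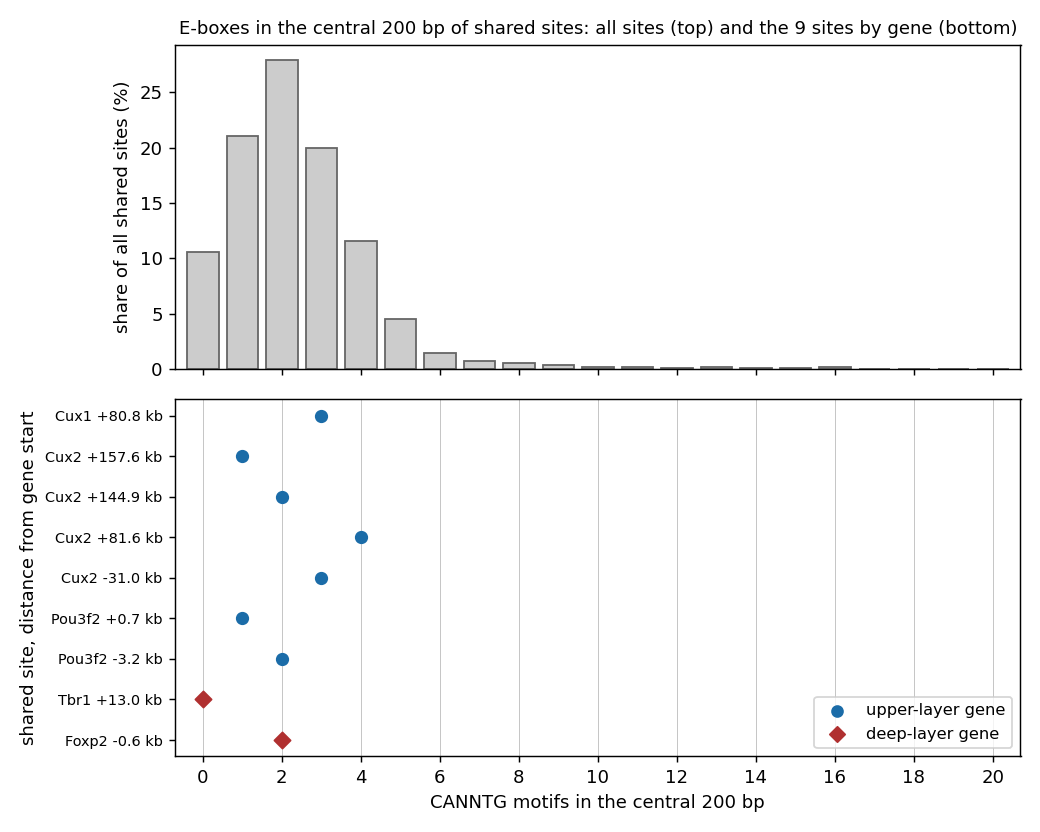
CANNTG motifs in the central 200 bp of shared sites. The upper panel gives the share of all 2071 shared sites (y axis) by the number of motifs (x axis), and the lower panel places each of the 9 sites on the same x axis, named by gene and distance from the gene start. The 9 sites hold 0 to 4 motifs, within the main body of the distribution.

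Another 11 genes known for layer identity or cortical projection neurons were examined in the same way (Bcl11a, Etv1, Foxp1, Ldb2, Lhx2, Nr4a2, Otx1, Pou3f3, Tle4, Tshz2 and Zfpm2). Of these, 1 had a shared site, Tshz2, with 3, 3 and 1 peaks of antibodies 1, 2 and 3. A count of 1 of 11 is near the 15.5% of all protein-coding genes. With antibody 1, 5 of the 11 had a peak, with antibody 2, 8, and with antibody 3, 2, against 29.4%, 52.7% and 22.1% of all protein-coding genes. Pou3f3, the close relative of Pou3f2, had 1, 4 and 0 peaks, and no peak of any antibody was found at Etv1, Nr4a2 or Otx1.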

How the data were processed

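NEUROD2 ChIP-Seq was performed by the authors on pooled cortex of wild-type mouse pups at postnatal day 0 with 3 antibodies. Reads were aligned by the authors to mm10 (Bowtie), and MACS was run separately on each antibody with the GFP antibody library as control. The deposited peak lists and the deposited table of shared sites give 1 score per peak or site, minus 10 times the log10 of p or its sum, not scaled between antibodies. Input DNA was left out, and the GFP library entered only through peak calling. Read depth is unknown from peak lists, and no interval on a score was made.

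Peaks and shared sites that overlapped a gene body of GENCODE M21 extended by 50 kb by at least 1 bp were assigned to the gene. The "gene start" is the 5' end of the gene body, distances are from region midpoints, and introns are those of the principal transcript (APPRIS). Sequences were read from the RefSeq copy of GRCm38. Upper-layer and deep-layer genes were compared for each antibody with an exact sign-flip permutation test over the 3 antibodies. Shares carry 95% Wilson intervals. All 9 members were named, with every shared site, and neighbours where they hold or are closest to one. The genes of the flanking antibody 2 peaks and Ptprg were named after their values were seen. The members, the 11 further genes and the E-box forms were chosen with earlier results of these data known. The result for 1 more gene of the further list is not reported here. Alternatives concerned the flank, the score threshold, the overlap, the unit compared, the motif and leaving out each antibody. The procedures were tested on simulated data. The tools were pysam 0.24.0, matplotlib 3.10.9, scipy 1.17.1, pandas 2.3.3 and numpy 2.4.6 under Python 3.11.15.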

Additional observations from a re-analysis of the deposited data

How the results depend on the processing

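No alternative reversed the mean difference between upper-layer and deep-layer genes, but many changed its size. The density difference was 0.899 peaks per 100 kb with flanks of 10 kb, 0.588 with 100 kb, 0.539 with scores of at least 100 and 0.988 as a mean over genes. The score difference was 20.862 with flanks of 10 kb (2 of 3 antibodies positive), 31.308 with 100 kb, 79.482 with scores of at least 100 and 103.243 for the highest score of each gene. With scores of at least 100, shared sites numbered 5 in 2 genes (Cux2 and Foxp2), and the peaks of antibodies 1, 2 and 3 numbered 8, 20 and 5. E-boxes averaged 4.89 over whole sites, against 5.03 in all shared sites, and 0.78 against 1.44 when the CAGATG and CAGCTG forms alone were counted. Leaving out each antibody in turn gave 9 to 18 shared sites in 5 to 8 genes, with the highest values, 18 and 8, without antibody 3. It gave density differences of 0.739 to 0.957, score differences of 20.26 to 44.43, and shares in the gene body of 62.5% to 72.7% at upper-layer and 0% to 57.1% at deep-layer genes (2 of 4 sites without antibody 1). Leaving out Cux2, Sox5 or peaks closest to another gene was chosen after seeing the data. The density difference then was 0.556, 0.831 and 0.635, and the score difference 19.593, 14.543 and 28.937. The differences are taken within each antibody.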
